A study of Mus musculus with 4 samples.

Results

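The MS4A genes, a family encoding small proteins that cross the membrane 4 times, were examined in LPMs, the large macrophages that live in the peritoneal cavity. The genes were taken by name from a list of 7, namely *Ms4a4a*, *Ms4a4c*, *Ms4a6b*, *Ms4a6c*, *Ms4a6d*, *Ms4a7* and *Ms4a8a*. Of these, 6 were measured among the 18364 genes of the table, and *Ms4a4a* was not analysed here. RNA from LPMs of C57BL/6 mice aged 8 weeks was sequenced in bulk, in 2 libraries labelled WT (genotype wild type) and 2 libraries labelled Rxra-KO (genotype Rxra-/-). In the study both groups carry floxed *Rxra* alleles (*Rxra* fl/fl), and the Rxra-KO animals also carry *LysM*-Cre, which is active in macrophages and in other myeloid cells. *Rxra* encodes the nuclear receptor RXRα, and the comparison asks which transcripts differ when it is deleted in these cells. The labels do not say whether the 2 libraries of a group came from separate animals. The p-values rest on a spread between libraries that is pooled largely across genes, and that spread may be technical. The study left out RNA-seq samples that did not group with their condition, which bears on the spread between the libraries that remain.

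MS4A genes lie next to each other in a cluster, and several members are close copies of their neighbours. MS4A proteins sit in the plasma membrane or in internal membranes, where some associate with immune receptors and alter their trafficking or signalling. The best known members are *Ms4a1*, which encodes the B cell protein CD20, and *Ms4a2*, which encodes the β chain of the mast cell receptor for IgE. The members listed here include genes that are expressed in monocytes and macrophages, and *Ms4a8a* has been tied to alternatively activated macrophages.

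In the order of the cluster on chromosome 19 (RefSeq gene table of GRCm38.p6), *Ms4a8a* came first of the 6 and stood apart from the others, followed by *Ms4a7*, *Ms4a4c*, *Ms4a6c*, *Ms4a6b* and *Ms4a6d*. *Ms4a6c* and *Ms4a6b* are direct neighbours. Their upstream sequences are shown because they share a long stretch, and because the separation of the groups at *Ms4a6b* was not seen at *Ms4a6c*. Each runs 5′ to 3′ over the 250 bases before the gene's start (RefSeq, GRCm38.p6, plus strand), at chr19:11518309-11518558 for *Ms4a6b* and chr19:11469118-11469367 for *Ms4a6c*. Capitals mark the 48 bases that are identical in both.
Ms4a6b: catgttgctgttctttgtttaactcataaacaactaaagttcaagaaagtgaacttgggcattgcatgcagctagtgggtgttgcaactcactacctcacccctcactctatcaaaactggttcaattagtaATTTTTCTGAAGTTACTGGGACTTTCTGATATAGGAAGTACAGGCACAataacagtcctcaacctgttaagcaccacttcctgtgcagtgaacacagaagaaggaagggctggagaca
Ms4a6c: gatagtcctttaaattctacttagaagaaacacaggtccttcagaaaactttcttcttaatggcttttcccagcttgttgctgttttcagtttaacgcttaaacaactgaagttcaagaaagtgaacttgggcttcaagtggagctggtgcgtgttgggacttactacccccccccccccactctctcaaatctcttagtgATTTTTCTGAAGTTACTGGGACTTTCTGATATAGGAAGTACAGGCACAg
The shared run ended 70 bases before the start of *Ms4a6b* and 1 base before that of *Ms4a6c*. Among 32851 RefSeq promoter windows of the same length it was found in 2, those of these genes. Around it, the best local alignment of the windows held 152 identical bases of 182 (83.5%). Promoter windows were matched for 5 of the 6 members, with 6 windows in all because *Ms4a7* had 2.

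A short search of these windows on both strands is given as a description of letters only. AGGTCA, the core element read by many nuclear receptors, stood in 1 of the 6 windows, 193 bases before the start of *Ms4a8a*, and in 14.0% of all windows. Direct repeats of it with 1 or with 5 bases of any kind between the copies were in none of the 6, and in 0.0335% and 0.00913% of all windows. GAGGAAGT, a form of the site read by the macrophage factor PU.1, was in none of the 6 and in 2.44% of all. The shorter AGGAAGT, which overlaps it and was added after the sequences were seen, was in 2 of 6, those of *Ms4a6b* and *Ms4a6c*, against 7.69% of all, and in both genes 1 copy lay within the shared run. TATAAA was in none of the 6 and in 12.4% of all windows.

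Few reads were counted per library. The deposited values were normalised reads, from which whole reads were recovered. Such reads cover the genes of the table only, and the depth of sequencing was not examined. They came to 652542 and 947372 reads for WT replicates 1 and 2, and to 629030 and 1047021 for Rxra-KO replicates 1 and 2. Each read added between 0.993 and 1.51 to a value, and the median gene had 9 reads in a library. The targeted gene did not follow the labels. Reads of *Rxra* numbered 20 and 28 (WT), then 33 and 77 (Rxra-KO), with scaled values higher in both libraries labelled Rxra-KO (log2 fold change 0.99, limma adjusted p = 0.183). The table gives 1 value per gene, so reads from the deleted part of *Rxra* cannot be told from the rest, and groups are named here only as their labels give them. *Lyz2*, the gene that carries *LysM*-Cre, fell by 1.03 on the log2 scale (adjusted p = 0.00163).

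None of the 6 MS4A members was called between the groups. A call required a limma adjusted p under 0.05, over all 18364 genes, and a change of 0.6 or more in either direction on the log2(value + 1) scale. By this rule 421 genes (2.29%) were called in the table, 1.32% higher and 0.969% lower in Rxra-KO, and beside such shares 0 of 6 does not set the members apart. At an unadjusted p under 0.05 there was 1 of 6, *Ms4a6b*, against 10.1% of all genes, or 5.68% when only higher genes are counted. Both libraries labelled Rxra-KO lay above both WT libraries for 2 of 6 members (18.8% of all genes) and below them for 1 of 6 (19.3% of all genes), while 3 overlapped. The median log2 fold change was 0.22 over the members and 0.02 over all genes. edgeR on the recovered reads also called 0 of 6, with 2.43% of all genes called and a smallest adjusted p of 0.127 among the members. The summed level of the 6 members was 115 and 101 in WT and 129 and 133 in Rxra-KO, from 76, 93, 86 and 134 reads.

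**Figure D1:**
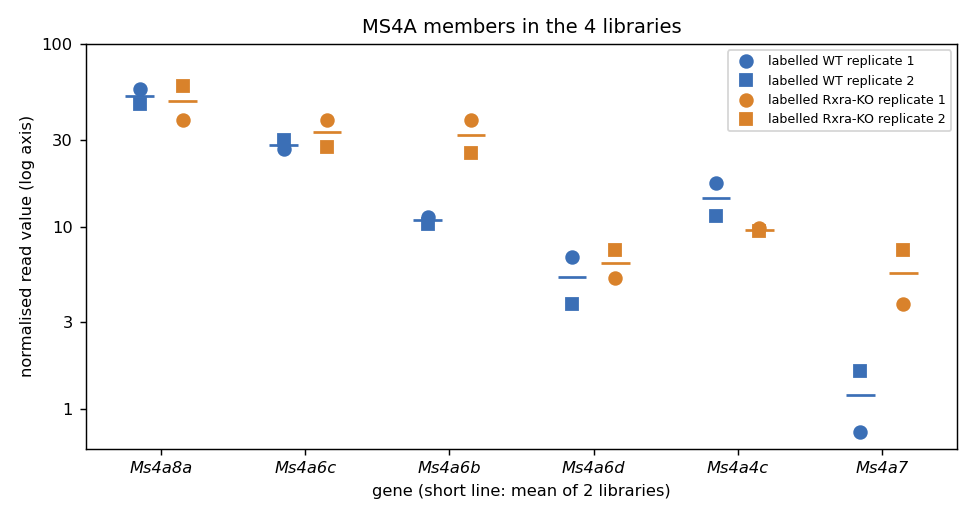
Normalised read value (log axis) of each of the 6 MS4A members in the 4 libraries, with blue for WT, orange for Rxra-KO, circles for replicate 1, squares for replicate 2 and a short line for the mean of 2 libraries. *Ms4a6b* and *Ms4a7* lie higher in both libraries labelled Rxra-KO, *Ms4a4c* lies lower in both, and the groups overlap for the other members.

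*Ms4a6b* showed the clearest separation of the groups among the 6 members. Its values were 11.4 and 10.3 in WT replicates 1 and 2, from 7 and 9 reads, and 38.4 and 25.3 in Rxra-KO replicates 1 and 2, from 25 reads in each. The WT libraries were close to each other, at 1.10-fold apart, and both libraries labelled Rxra-KO were above them. WT averaged 10.8 ± 0.742 and Rxra-KO averaged 31.9 ± 9.24 (SD, n = 2 each). This gave a log2 fold change of 1.45 (SE 0.51, 95% interval 0.44 to 2.45), with a p from limma of 0.00499 before adjustment and an adjusted p of 0.145. The depth-scaled ratio of reads was 2.96, with a 95% counting interval of 1.66 to 5.57. Intervals of read ratios cover counting error of reads only, and not the spread between libraries. The reads carry no molecular identifiers, so copies of the same molecule cannot be told apart and the intervals may be too narrow. Without Rxra-KO replicate 1 the log2 fold change was 1.16 and the unadjusted p from limma was 0.106, so that the separation rested in part on that library.

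*Ms4a6c*, the neighbour with the shared upstream run, did not separate the groups. Its values were 26.5 and 29.8 in WT, from 17 and 27 reads, and 38.4 and 27.3 in Rxra-KO, from 25 and 27 reads. The library labelled Rxra-KO replicate 2 fell between the WT libraries. For *Ms4a6c* the log2 fold change was 0.20 (SE 0.42, adjusted p from limma 0.954), and its 95% interval left room for anything from 1.54-fold lower to 2.03-fold higher. The fold changes of *Ms4a6b* and *Ms4a6c* were not tested against each other, and their 95% intervals overlap. *Ms4a6d* was measured with few reads, 4 and 3 (WT), then 3 and 7 (Rxra-KO). Its values were 6.81 and 3.80 in WT and 5.27 and 7.45 in Rxra-KO, which overlap. On the log2 scale the difference was 0.25, with an interval of -1.27 to 1.76, which does not exclude a level 3.40-fold higher or 2.40-fold lower.

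The 3 Ms4a6 genes were also compared as a group. The share of *Ms4a6b* in their summed reads was 25% in WT replicate 1 (7 of 28 reads, exact 95% interval 10.7% to 44.9%) and 23.1% in WT replicate 2 (9 of 39 reads, 11.1% to 39.3%). The share was 47.2% in Rxra-KO replicate 1 (25 of 53 reads, 33.3% to 61.4%) and 42.4% in Rxra-KO replicate 2 (25 of 59 reads, 29.6% to 55.9%). The share was higher in both libraries labelled Rxra-KO, although the intervals of single libraries overlap. It was computed after the values of these genes had been seen, and with 2 libraries against 2 an exact permutation test cannot give a two-sided p under 0.333. Summed over the 3 genes, which is not affected by reads moving between them, WT held 28 and 39 reads and Rxra-KO held 53 and 59. The sum had a log2 fold change of 0.67 (95% interval 0.00 to 1.34), with an adjusted p of 0.490 from limma and 0.515 from edgeR, and was not called.

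*Ms4a4c* was the member with the lower values in the libraries labelled Rxra-KO. Its values were 17.4 and 11.4 in WT, from 11 and 10 reads, and 9.79 and 9.44 in Rxra-KO, from 6 and 9 reads. The groups did not overlap, but the WT libraries were 1.53-fold apart. The log2 fold change was -0.51 (SE 0.62, 95% interval -1.73 to 0.71, adjusted p from limma 0.897). *Ms4a4b* and *Ms4a4d*, its near copies, were lower still. *Ms4a4b* had 3 and 6 reads for WT, then 2 and 2 for Rxra-KO, and *Ms4a4d* had 3 and 5, then 1 and 0. Summed over the 3 Ms4a4 genes WT held 17 and 21 reads and Rxra-KO held 9 and 11. Each of the 3 genes and their sum lay lower in both libraries labelled Rxra-KO, as did 19.3% of all genes, and none was called. As near copies that can share reads, the 3 are not independent. The log2 fold change of the sum was -0.91 (95% interval -1.93 to 0.11), with adjusted p-values of 0.587 from limma and 0.601 from edgeR.

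*Ms4a7* was the lowest of the 6. WT held 0 and 1 reads of it and Rxra-KO held 2 and 7, giving values of 0.757, 1.63, 3.76 and 7.45 in that order. Both WT libraries were at or below 3 reads, which is taken here as the floor. The depth-scaled ratio of reads was 8.52, with a counting interval of 1.18 to 374. The fitted log2 fold change was 1.56 (95% interval -0.02 to 3.15), with a p of 0.0534 before adjustment and an adjusted p of 0.505 from limma. At such counts the fitted change depends on the pseudocount, and it ran from 0.76 to 2.99 over the alternatives that fitted it.

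*Ms4a8a* had the most reads of the 6 members and no separation of the groups. Its values were 56.8 and 47.2 in WT, from 37 and 43 reads, and 38.4 and 59.1 in Rxra-KO, from 25 and 59 reads. The libraries labelled Rxra-KO were the lowest and the highest of the 4. On the log2 scale the difference was -0.12 (SE 0.35, adjusted p from limma 0.979). Its interval, -0.81 to 0.57, is the narrowest of the 6, and runs from 1.75-fold lower to 1.49-fold higher.

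**Figure D2:**
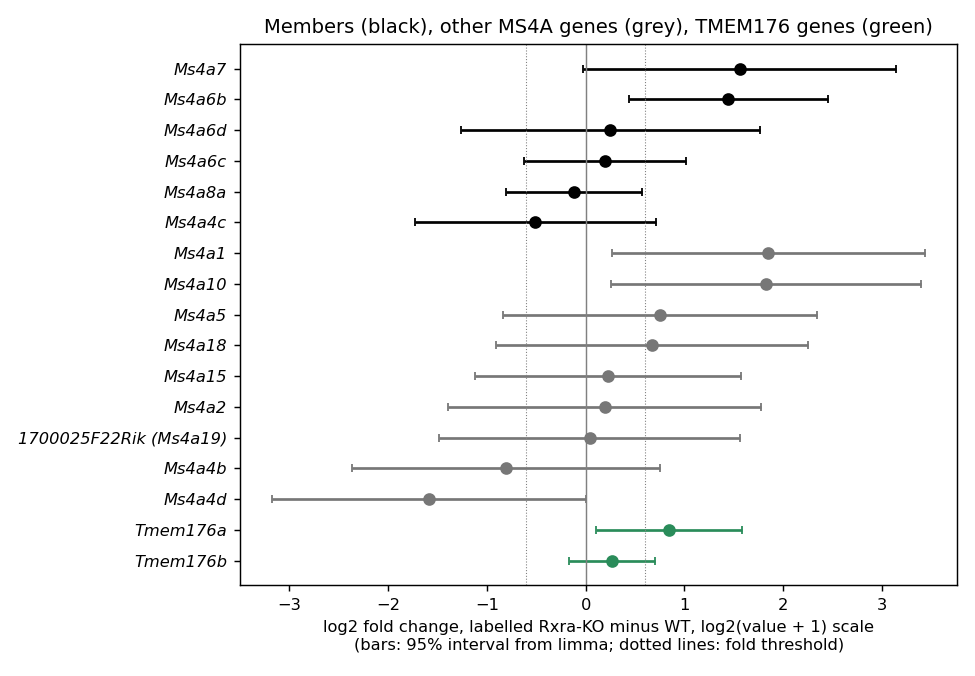
Log2 fold change, Rxra-KO minus WT, of the 6 members (black), 9 other MS4A genes (grey) and 2 TMEM176 genes (green), on the log2(value + 1) scale. Bars are 95% intervals from limma, unadjusted for the number of genes, and dotted lines mark the fold threshold of 0.6. Among the members only the bar of *Ms4a6b* clears 0, and no gene drawn was called.

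Levels were compared between members only per length, as reads times the value of 1 read per kb of the longest coding transcript. In WT the order of these levels was *Ms4a8a* (47.5 ± 6.13 per kb), *Ms4a6c* (14.9 ± 1.36), *Ms4a4c* (7.98 ± 2.38), *Ms4a6b* (3.80 ± 0.220), *Ms4a6d* (3.28 ± 1.40) and *Ms4a7* (0.344 ± 0.487), all as mean ± SD with n = 2. The WT levels of *Ms4a6b* and *Ms4a6d* overlapped, and those of the other neighbours in the order did not. In Rxra-KO the order of the levels was *Ms4a8a* (44.5 ± 13.7 per kb), *Ms4a6c* (17.5 ± 4.16), *Ms4a6b* (11.7 ± 3.38), *Ms4a4c* (5.22 ± 0.0391), *Ms4a6d* (4.04 ± 1.21) and *Ms4a7* (3.16 ± 1.77). *Ms4a6b* stood above *Ms4a4c* in both of these libraries and below it in both WT libraries. In WT that order came from 7 and 9 reads of *Ms4a6b* over 2680 bases. *Ms4a4c* had 11 and 10 reads there over 1723 bases, and lengths of other transcripts were not tried. The levels of *Ms4a6d* and *Ms4a7* overlapped in Rxra-KO. The ranges of *Ms4a6c* and *Ms4a6b* came within less than the SD of either gene, so that neighbours there did not differ beyond their spread.

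**Figure D3:**
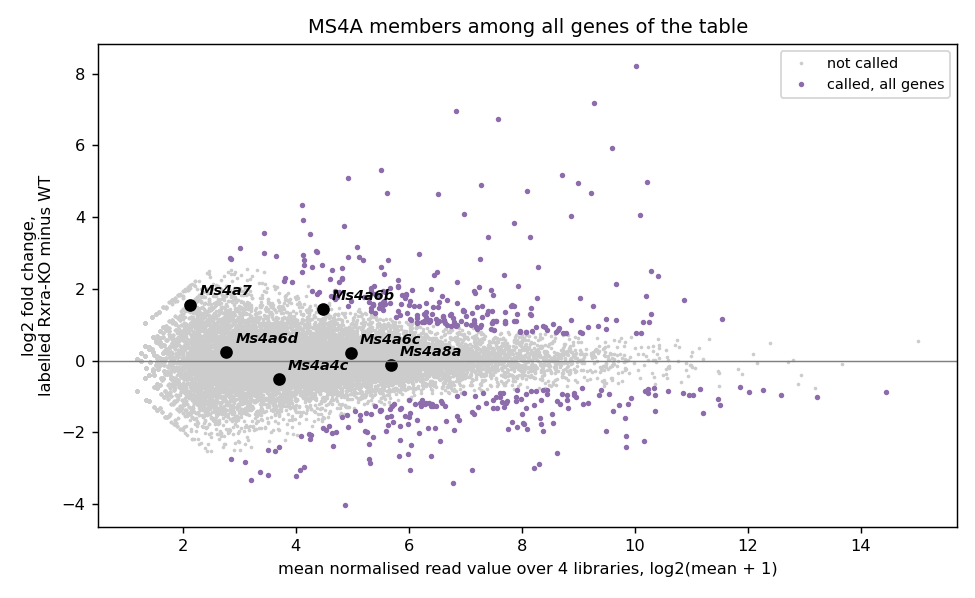
Log2 fold change, Rxra-KO minus WT, against the mean normalised read value over the 4 libraries (log2 of mean + 1) for all 18364 genes, with the 421 called genes in purple and the MS4A members in black. All 6 members lie in the grey cloud of genes that were not called, with *Ms4a6b* (1.45) and *Ms4a7* (1.56) towards its upper side.

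Since the members are related, it was asked how far their reads could be told apart. In the coding sequences of the mouse annotation, *Ms4a4c* was identical to *Ms4a4b* at 91.7% of aligned bases and to *Ms4a4d* at 85.4%. *Ms4a6b* was identical to *Ms4a6d* at 79.8% and to *Ms4a6c* at 74.4%, while *Ms4a6c* and *Ms4a6d* shared 67.2%. *Ms4a7* and *Ms4a8a* were at most 51.2% identical to any other member. Counted as words of 31 bases over all transcripts of a gene, 15.6% of the words of *Ms4a4c* also occurred in another MS4A gene, 14.2% for *Ms4a6c*, 7.71% for *Ms4a6b* and 5.10% for *Ms4a6d*. For *Ms4a7* and *Ms4a8a* no word was shared with another MS4A gene. *Ms4a6c* also shared 51.0% of its words, matched on either strand, with *BE692007*, a noncoding RNA that overlaps it in antisense. *Ms4a6b* shared 3.28% of its words with *BE692007*. Reads of *Ms4a6c* and of this antisense gene cannot be told apart where the counting does not use strand, which the sources used here do not state. The values of *Ms4a6b*, *Ms4a6c*, *Ms4a6d* and *Ms4a4c* are therefore uncertain by whatever was counted to a near copy, and how many reads this was could not be measured.

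**Figure D4:**
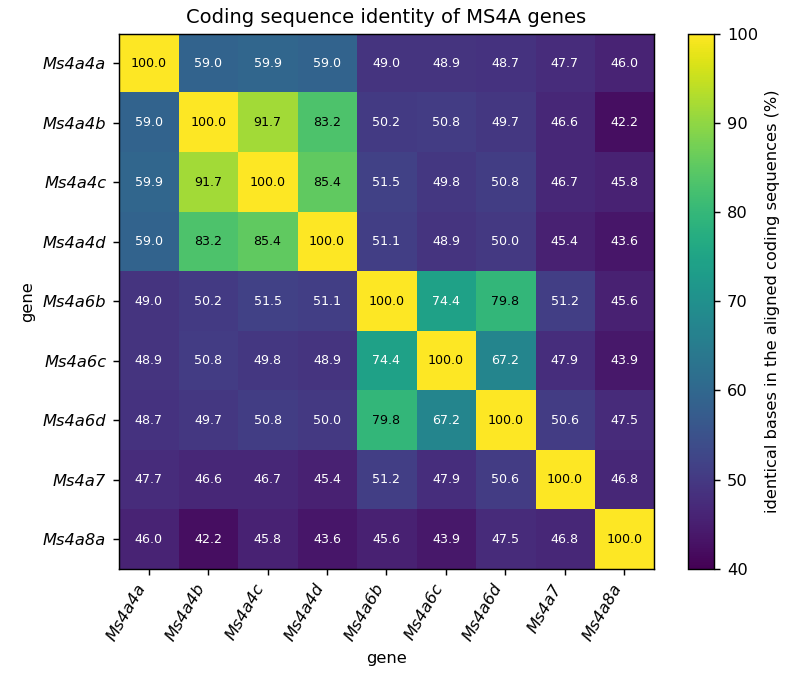
Percent of identical bases between the aligned coding sequences of 9 MS4A genes, each row and column a gene. *Ms4a4b*, *Ms4a4c* and *Ms4a4d* form a block of close copies, reaching 91.7%, *Ms4a6b*, *Ms4a6c* and *Ms4a6d* form another, and *Ms4a7* and *Ms4a8a* stand apart from both.

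The rest of the family was measured at few reads. Other MS4A genes numbered 9 in the table, of which 0 were called by limma, edgeR or voom. DESeq2 also called 0 of them, but it gave an adjusted p to 5547 genes only, and none to *Ms4a6b*, which had more reads. At an unadjusted p from limma under 0.05 there were 2 of the 9, and all 9 had a mean under 10 reads. Among all genes the shares were 2.29% called by limma, 10.1% at an unadjusted p under 0.05 and 51.8% with a mean under 10 reads. *Ms4a1* went from 0 and 1 reads (WT) to 5 and 5 (Rxra-KO), with an adjusted p of 0.335 from limma. *Ms4a10* went from 0 and 0 reads to 3 and 4, with the same adjusted p. *Ms4a4d* lay on the other side, with a log2 fold change of -1.58 and an adjusted p of 0.494 from limma. *Ms4a2* (1 and 6 reads for WT, 8 and 1 for Rxra-KO), *Ms4a5* (2 and 0, then 1 and 5), *Ms4a15* (5 and 7, then 8 and 7) and *1700025F22Rik*, also named *Ms4a19* (0 and 1, then 1 and 0), overlapped between the groups. *Ms4a18* had 1 and 1 reads, then 3 and 2, at or below the floor in every library.

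*Tmem176a* and *Tmem176b* encode related proteins with the same number of membrane passes. *Tmem176a* had values of 29.5 and 28.7 in WT and 56.5 and 50.2 in Rxra-KO, from 19, 26, 37 and 50 reads. Both libraries labelled Rxra-KO were higher, at a log2 fold change of 0.85 (p from limma 0.0253, adjusted p 0.359). *Tmem176b* was measured at greater depth, with values of 600.3 and 521 in WT and 531 and 853 in Rxra-KO. Its groups overlapped, with a log2 fold change of 0.27 and an adjusted p of 0.797 from limma.

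Receptors and adaptors that MS4A proteins have been tied to were taken as a list of 10 genes, of which 1 was called. *Trem2*, a lipid-sensing receptor of macrophages, had values of 3.79 and 3.80 in WT and 35.4 and 24.3 in Rxra-KO, from 2, 3, 23 and 24 reads. Both WT libraries were at the floor, and both libraries labelled Rxra-KO were well above it. The log2 fold change was 2.66 (SE 0.63, adjusted p from limma 0.00289), and the depth-scaled ratio of reads was 8.90, with a counting interval of 3.56 to 28.7. The call was lost without Rxra-KO replicate 1 (limma adjusted p = 0.357) and without Rxra-KO replicate 2 (limma adjusted p = 0.0612), while the log2 fold change was between 2.40 and 2.92 with any 1 library left out. *Tyrobp*, the adaptor through which *Trem2* signals, was not called. Its values were 62.8 and 46.1 in WT and 21.8 and 33.3 in Rxra-KO, lower in both (log2 fold change -0.97, adjusted p from limma 0.249).

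The other 9 genes of the list were not called. *Clec7a*, which encodes the β-glucan receptor dectin-1, had values of 254 and 189 in WT and 213 and 238 in Rxra-KO (log2 fold change 0.04, 95% interval -0.44 to 0.52). *Syk*, the kinase below it, had a log2 fold change of -0.07 (95% interval -0.57 to 0.42), and *Vsig4*, a complement receptor of resident macrophages, one of 0.12 (95% interval -0.48 to 0.73). *Adam10*, a protease that sheds receptors from the surface, had values of 470 and 546 in WT and 717 and 851 in Rxra-KO (log2 fold change 0.62, adjusted p from limma 0.142). *Adam10* was called with voom (adjusted p = 0.0488) and with the replicate number as a block in limma (adjusted p = 0.0187), so that its call depends on the fit. The median log2 fold change of the 10 was 0.08. Genes of this and the later lists that are named without being called were chosen after their values were seen.

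Markers of macrophage states were read beside the MS4A genes. Among 10 genes of alternatively activated and resident macrophages, 8 were called, 7 of them higher and 1 lower in Rxra-KO. The median log2 fold change of the list was 3.32. *Retnla* (log2 fold change 4.97), *Lyve1* (4.94), *Folr2* (4.73) and *Cd163* (4.67) led the list. Some of these genes also differed between the WT libraries. *Lyve1* was 6.98-fold higher in WT replicate 1 than in WT replicate 2, *Folr2* 6.55-fold and *Retnla* 4.57-fold, while *Cd163* was 1.23-fold higher. Of 9 LPM markers, 7 were called, all lower, among them *Gata6* (log2 fold change -2.32), the factor that sets LPM identity, *Ltbp1* (-2.24), *Alox15* (-1.61) and *Selp* (-1.39), and the median was -1.25. *Gata6* had the fewest reads of the 9, with 35 and 65, then 3 and 24, which is at the floor in Rxra-KO replicate 1.

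Lists of other cells were read for the level of their summed markers, since several MS4A genes mark such cells. In bulk samples fewer cells of a type and less RNA per cell cannot be told apart. The 11 monocyte markers summed to levels of 548 and 320 in WT and 3022 and 2513 in Rxra-KO, with 2 of 11 called, *F13a1* (log2 fold change 4.06) and *Ccr2* (3.46). The other 9 summed to 191 and 246 in WT and 205 and 237 in Rxra-KO, 8 of the 11 overlapped between the groups, and the median log2 fold change of the 11 was 0.21. *F13a1* was 5.72-fold higher in WT replicate 1 than in WT replicate 2. The authors sorted the cells in 2 rounds and describe the LPMs as nearly pure, and the part of monocytes or other macrophages in the values of *Ms4a6b* and *Ms4a7* was not tested. B cell markers summed to levels of 268 and 243 in WT and 247 and 160 in Rxra-KO (1 of 9 called, *Bank1*, log2 fold change -0.98). These sums depend in large part on *Bank1*, which gave 108 of 177 and 126 of 224 reads (WT), then 68 of 164 and 55 of 161 (Rxra-KO). The B cell list as a whole showed no common direction, with a median log2 fold change of -0.07. Of its 9 genes, 5 overlapped between the groups, 2 were lower in both libraries labelled Rxra-KO, and 2, among them *Ms4a1*, were higher in both. Among all genes 19.3% lay lower and 18.8% higher in both, and 2.29% were called, shares that stand beside each list here. T cell markers summed to 121 and 115 in WT and 113 and 84.4 in Rxra-KO (1 of 10 called, *Cd2*, with 0 and 0 reads, then 11 and 6). Mast cell markers summed to 43.9 and 40.1 in WT and 39.1 and 28.8 in Rxra-KO (0 of 8 called). Dendritic cell markers summed to 84.8 and 82.4 in WT and 125 and 167 in Rxra-KO (1 of 9 called, *Cd209a*, log2 fold change 1.95). The other 8 summed to 63.6 and 68.3, then 60.2 and 87.4, and the median log2 fold change of the 9 was 0.10, with 4 of 9 negative. Neutrophil markers summed to 112 and 101 in WT and 108 and 122 in Rxra-KO (0 of 4 called), mesothelial markers to 65.1 and 85.7 and to 55.7 and 64.6 (0 of 5), and granulocyte progenitor markers to 6.06 and 17.4 and to 4.52 and 7.95 (0 of 2). No gene among the 18364 stood at 0 reads in every library, so the same holds for every measured marker by construction. Of the listed markers, 4 of 8 for neutrophils, 5 of 7 for mesothelial cells and 2 of 5 for granulocyte progenitors were measured. Of the 4 for neutrophils, 1 held 312 reads over the 4 libraries, and 3 had a mean under 10 reads. Of the 5 for mesothelial cells, 1 held 171 reads and 4 had a mean under 10, so both sums rest largely on 1 gene.

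**Figure D5:**
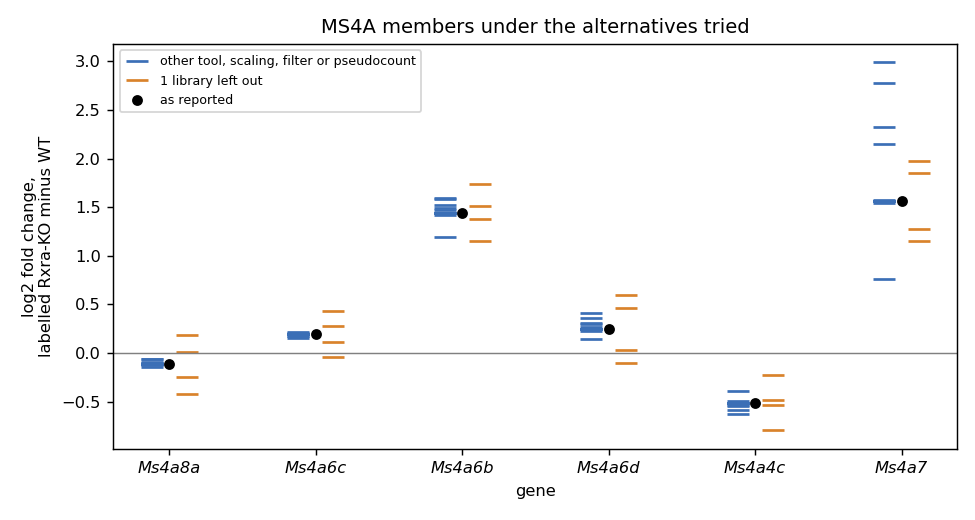
Log2 fold change, Rxra-KO minus WT, of the 6 members as reported (black points), with another tool, scaling, filter or pseudocount (blue lines) and with 1 library left out (orange lines). *Ms4a6b* stays between 1.16 and 1.74 throughout, *Ms4a7* moves from 0.76 to 2.99 with the tool and pseudocount, and *Ms4a6c*, *Ms4a6d* and *Ms4a8a* cross 0 when single libraries are left out.

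Of 19 alternatives, 11 could move the fold of *Ms4a6b* and the others leave it as it was by construction. In all 11 it was higher in Rxra-KO, and it was called in 0 of the 19. DESeq2 gave it no adjusted p and so could not call it, and the fit without the trend called 0 genes in all. In the fits of all 4 libraries its adjusted p ran from 0.106 to 0.513, both from limma. *Ms4a7* was higher and *Ms4a4c* was lower in all 11 alternatives that could move their folds, also without a call. *Ms4a6c*, *Ms4a6d* and *Ms4a8a* each changed direction when a single library was left out.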

How the data were processed

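RNA from sorted large peritoneal macrophages (LPMs) was sequenced in 4 libraries, 2 per group, with groups taken from the sample titles. The authors used a low-input SMART-Seq kit for library preparation. The authors quantified transcripts with Kallisto 0.43.0, summarised them to genes, filtered out low genes and applied limma with TMM scaling. The methods name a human reference, GRCh38, while the table carries mouse symbols, so the reference used was not settled. The deposited values are a normalised read signal, each equal to whole reads plus 0.5 times a fixed step per library, and 100% gave whole reads (tolerance 0.001). TMM and voom of the recovered reads returned the table within 4.59e-06.

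Values were tested as log2(value + 1) with limma (3.58.1, R 4.3.3) and a mean-variance trend, without a covariate, two-sided, and p-values were adjusted by Benjamini-Hochberg across 18364 genes. Genes needed a value of 1 or more in 2 libraries, and 0 were removed. Calls rest on spread shared across genes (227 prior against 2 residual degrees of freedom). edgeR (4.0.16) was run on the recovered reads, DESeq2 (1.42.0) and voom served as alternatives, and scripts were tested on simulated data. Read ratios carry exact 95% counting intervals and shares exact Clopper-Pearson intervals, which cover counting error only. Transcript sequences came from the GENCODE mouse annotation and promoters from RefSeq (GRCm38.p6), and alignments were made with Biopython (1.88).

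Members and lists were chosen with earlier results of these data known, so no test was made over a list. The rule for named genes took all members, every other MS4A gene, *Tmem176a* and *Tmem176b*, at most 4 called genes per list by size of change, and *Rxra* and *Lyz2*. It also asked for the genes most like a called member, and there was none. Replicate numbers are shared between the groups, but the labels do not say what they mark.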

Additional observations from a re-analysis of the deposited data

How the results depend on the processing

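The count of members called was 0 under every alternative that was run. DESeq2 gave 2 of the 6 an adjusted p. Requiring a value of at least 10 in 2 libraries left 4 members among 10359 genes, and dropping the filter removed no gene, so it tested nothing. The count of called genes, 421, became 246 with DESeq2, where 5547 genes had an adjusted p, and 0 without the mean-variance trend, where 1579 had an unadjusted p under 0.05. Leaving out 1 library gave between 167 and 381 called genes, with 240 without WT replicate 2 and 167 without Rxra-KO replicate 1, in fits where the lone sample of a group is assumed to vary like the other group. Over these 4 fits the log2 fold change of *Ms4a6c* ran from -0.040 to 0.44 (lowest without Rxra-KO replicate 1), that of *Ms4a6d* from -0.10 (without WT replicate 2) to 0.60, and that of *Ms4a8a* from -0.42 to 0.19 (highest without Rxra-KO replicate 1, and 0.014 without WT replicate 1). The cause was not tested. The other 108 member values kept their direction, and none was called. Many of them could not change direction, since for *Ms4a6b* only 11 of 19 alternatives could move the fold.

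With the replicate number as a block, 540 genes and 0 members were called, and *Ms4a6b* had an adjusted p of 0.126. Same-numbered libraries deviated together with a correlation of 0.0629 across 10049 genes, with 2 pairs, so the numbers are not shown to pair the libraries. *Trem2* was called in 15 of 19 alternatives, with no adjusted p from DESeq2 and an adjusted p of 0.356 without the trend. The robust prior of limma called 3 genes of the alternatively activated list and 1 of the monocyte list, and the single B cell and T cell calls were each lost in several alternatives. The low number of counted reads is a limit, since 3 of 6 members had a mean under 10 reads, as did 51.8% of all genes. Of the receptor list, *Adam10* was called with voom and with the replicate block.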
